A study of Homo sapiens with 4 samples.

Results

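H1299 cells carrying the Oct4/GFP reporter were compared between the population labeled GFP (+) and the population labeled GFP (−), each measured on 1 array. The genes described are those of the probes that have a gene symbol in the platform annotation, 17397 of 30968 probes, which represent 15207 genes. Of these, 3175 genes were above background on both Oct4/GFP arrays and have a measured difference, and 1798 further genes were above background on 1 of them and have a bound. The remaining genes, 9020 above background on neither array and 1214 above background on 1 array only with no bound over 1, have no fold.

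H1299 is an established human non-small cell lung cancer line. The cells had been stably transfected with a vector in which the Oct4 promoter drives the green fluorescent protein (GFP), and a second line carried the nestin promoter in front of GFP. Cells with high GFP were isolated by flow sorting, RNA was taken after 24 h, labeled with Cy3 and hybridized to spotted arrays of long probes. The study used the reporters to separate lung cancer cells with stem cell features from the rest of the line. The labels describe the GFP (−) RNA both as negative for GFP and as negative for the reporter vector, so sorted cells that had lost GFP and cells without the reporter cannot be told apart here. A promoter reporter marks the activity of the vector, and not directly the RNA of the gene.

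Oct4, the product of POU5F1, is a POU domain transcription factor of pluripotent cells that binds an octamer sequence, often together with SOX2. In embryonic stem cells the pair holds the cell in a self-renewing state with NANOG. BMP signaling runs from secreted ligands through type I and type II receptor kinases to SMAD1 and SMAD5, and ID1, ID2 and ID3, inhibitors of DNA-binding transcription factors, are its best known targets.

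With 1 array per population no difference has a replicate check and no p-value is given. In a bulk sample, fewer cells that make an RNA and less of it per cell cannot be told apart. Intensities were dim, with a median over all probes of 7 for Oct4/GFP (+), 4 for Oct4/GFP (−), 7 for Nestin/GFP (+) and 9 for Nestin/GFP (−). The limit for calling a probe above background was 3 noise SD of the array, or 15.3 for Oct4/GFP (+) and 13.9 for Oct4/GFP (−), where the noise SD comes from the values below 0. This held for 27.9% and 19.5% of the probes. Over the 4702 probes above background on both, the deposited intensity was 2.04-fold higher on the Oct4/GFP (+) array in the median, so the 4 arrays were quantile normalized before any fold was taken. A difference is the log2 of the normalized Oct4/GFP (+) intensity over the normalized Oct4/GFP (−) intensity, and genes past 2-fold lie above 1 or below -1. Intensities quoted for a gene are the deposited values in the order Oct4/GFP (+), Oct4/GFP (−), Nestin/GFP (+) and Nestin/GFP (−). Because the arrays differ in brightness, deposited intensities are not comparable between arrays as they stand, and equal ones on both Oct4/GFP arrays correspond to a level about 2.04-fold lower in the GFP (+) cells.

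The labeled line was checked against markers of H1299 and of other cell types. Vimentin (VIM), an intermediate filament protein that H1299 makes in quantity, read 267, 140, 1518 and 772, and N-cadherin (CDH2) read 108, 52, 156 and 155. Both were above background on all 4 arrays, and their Oct4 differences were -0.20 and 0.10. Of 8 leukocyte markers 1 was above background on either Oct4/GFP array, of 9 markers of fibroblasts and smooth muscle 1 on the GFP (+) and 2 on the GFP (−) array, of 6 endothelial markers 0 and 1, and the 1 erythroid marker on neither. The summed intensity of the brightest probe of each leukocyte marker was 105 and 38 on the Oct4/GFP arrays. The leukocyte marker concerned was CD3D, a subunit of the T cell receptor complex, of which 1 probe read 70, 16, 202 and 167 and the other -7, 0, 0 and 5. Of 9 lung epithelial markers 5 were above background on the GFP (+) and 3 on the GFP (−) array. FOXJ1, a factor of ciliated cells, read 113, 100, 135 and 119, and the brighter probe of surfactant protein SFTPB 119, 56, 130 and 128. The Oct4 differences were -0.94 for FOXJ1, 0.35 for SFTPB and -0.34 for TP63, and SFTPD had a bound of 0.58.

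Among the measured genes, the Oct4/GFP (+) cells were over 2-fold higher for 261 (8.22%) and over 2-fold lower for 421 (13.3%). With bounds included, 4973 genes were compared, of which 552 (11.1%) were over 2-fold higher and 973 (19.6%) over 2-fold lower. The split depended on the scaling. Higher calls made up 36.2% of all calls after quantile normalization, 56.8% after a loess of the difference on the level (850 higher and 646 lower) and 94.5% on the values as deposited (2460 higher and 143 lower). It also depended on the level of the gene. Of the 794 dimmest measured genes 4.91% were over 2-fold higher and 25.1% lower, whereas of the 1587 genes above the median level 118 were higher and 119 lower. The lowest normalized intensity that counted as above background was 30.5 for Oct4/GFP (−) and 17.2 for Oct4/GFP (+). A probe above background for Oct4/GFP (+) only and under 30.5 there gave no bound, and none was lost this way for Oct4/GFP (−). Probes above background on 1 array only numbered 3946 for Oct4/GFP (+) and 1348 for Oct4/GFP (−). Bounds past 2-fold were nevertheless 291 higher and 552 lower. The part of this gap in the excess of lower genes was not tested. The differences of all measured genes ran from -0.59 at the 25th to 0.49 at the 75th percentile and from -1.57 at the 5th to 1.19 at the 95th, with a median of 0 and an SD of 0.89.

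**Figure D1:**
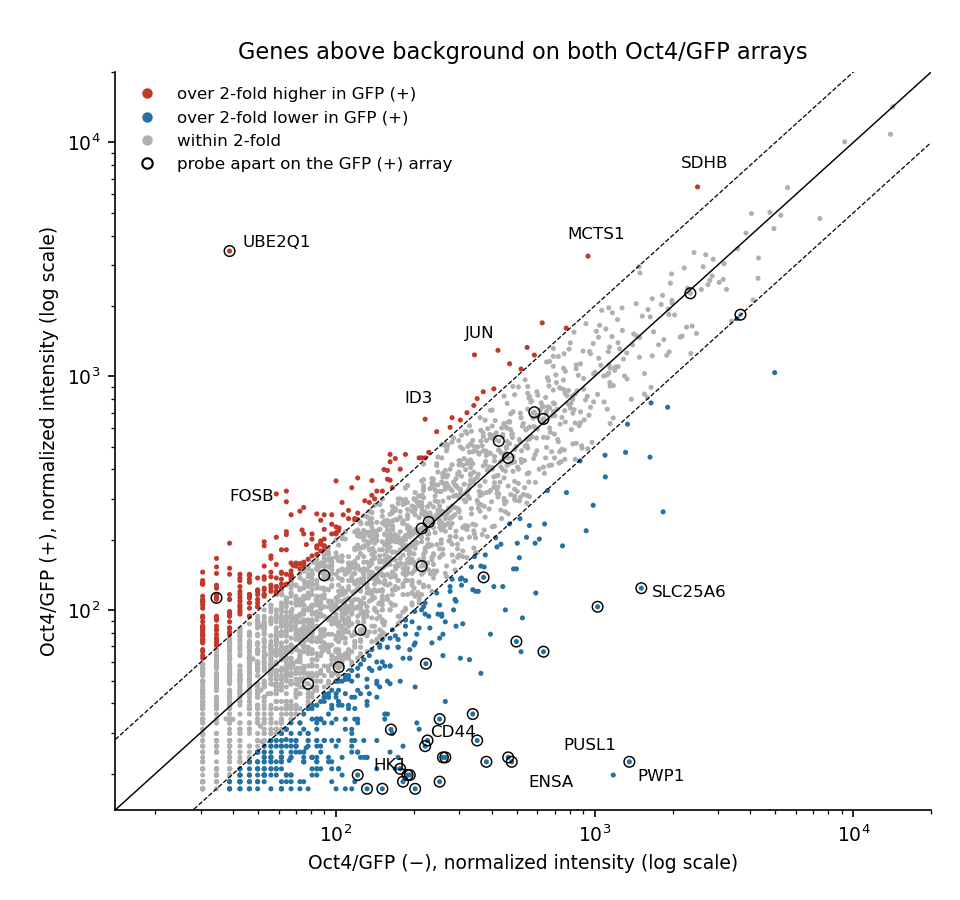
Normalized intensity of the 3175 genes above background on both Oct4/GFP arrays, Oct4/GFP (−) on the horizontal and Oct4/GFP (+) on the vertical log axis, with equality as a solid and 2-fold as dashed lines. Most genes lie between the dashed lines, UBE2Q1 is the farthest of the 261 above them, and the circled genes, which have a probe standing apart for Oct4/GFP (+), make up most of the far lower points.

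Some probes stood apart on the Oct4/GFP (+) array, the only array screened in this way. At 129 probes the Oct4/GFP (+) level differed by more than 8-fold from the other 3 arrays averaged, upwards at 9 and downwards at 120. They belong to 27 of the measured genes over 2-fold lower and to 2 of those over 2-fold higher. For genes with several probes the others did not always share the shift. For SNRPA, a U1 snRNP protein, the probe apart read 151, 524, 4010 and 2250 with a difference of -2.99, and the other probe read 64, 29, 288 and 164 with a difference of 0.13. For MRPL12, a protein of the mitochondrial ribosome, both probes were apart, at 17, 60, 514 and 318 and at 11, 86, 811 and 515. Genes with such a probe are named as such below.

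Different probes of one gene gave a second view of the precision. In 181 genes at least 2 probes were above background on both Oct4/GFP arrays. Across these genes, which are not independent replicates, the difference of the first probe correlated with that of the last with r = 0.10 (Spearman rho = 0.13), and the SD between probes of a gene was 0.84 on the log2 scale. In the Nestin/GFP pair the same values were r = 0.19 and 0.55 over 362 genes. Of the 43 genes whose first probe was past 2-fold in the Oct4/GFP pair, the last probe pointed the same way in 23. It was itself past 2-fold that way in 8, beside 8.22% of all measured genes over 2-fold higher and 13.3% lower. A 2-fold difference read from a single probe is thus close to the spread between probes of one gene.

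**Figure D2:**
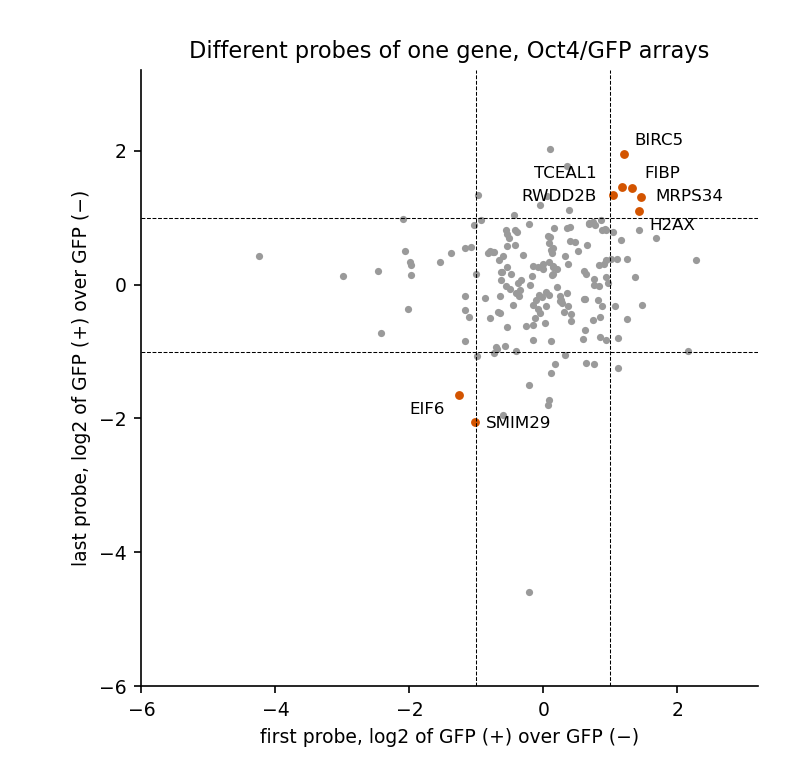
Log2 difference between the Oct4/GFP arrays for the first and the last probe of each of 181 genes, with dashed lines at 2-fold on either side. The cloud has little slope, and the 8 genes in orange are past 2-fold in the same direction by both probes.

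In those 8 genes, picked from these data for this agreement, the first and the last probe were each past 2-fold the same way. BIRC5 encodes survivin, an inhibitor of apoptosis and a subunit of the chromosomal passenger complex. Its probes read 186, 42, 500 and 356 and 122, 18, 202 and 175, with differences of 1.20 and 1.95. FIBP, which binds acidic fibroblast growth factor, read 408, 75, 736 and 569 and 186, 36, 344 and 342, with differences of 1.33 and 1.44. MRPS34, of the small subunit of the mitochondrial ribosome, read 180, 35, 380 and 334 and 341, 64, 328 and 278. H2AX, the histone variant that is phosphorylated at DNA breaks, read 536, 85, 2006 and 769 and 67, 17, 86 and 41. In these 4 genes both probes were past 2-fold with Oct4/GFP (+) higher. TCEAL1, related to a transcription elongation factor, and RWDD2B completed the 6 higher genes, at mean differences of 1.31 and 1.19. EIF6, an initiation factor that keeps the ribosomal subunits apart, was lower by both probes, which read 328, 355, 1964 and 1279 and 81, 115, 947 and 436. SMIM29, listed on the array under its older symbol C6orf1, read 19, 17, 94 and 16 and 22, 37, 166 and 132, with a mean difference of -1.53.

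The stem cell and BMP genes the study names were mostly not above background. POU5F1, PROM1 (the CD133 gene) and POU3F1 were not analysed here, since none of the named probes is theirs. SOX2 read -3, 7, 9 and 8, NANOG -2, 6, -7 and 10, and NES, the gene of nestin, 5, 2, -4 and 20, all under the limit of their array. The ligands BMP2 and BMP4, the type I receptors ACVRL1 and BMPR1B, the lung transcription factor NKX2-1 and the neuroendocrine genes CHGA and SYP were also under the limit on both Oct4/GFP arrays. Not detectable here means that these intensities lay within 3 noise SD of 0, and does not show that the RNA was absent.

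Receptors and Smads that could be measured were mostly within 2-fold between the populations. The type I receptor BMPR1A, by its brighter probe, read 122, 63, 349 and 202 and had a difference of -0.10. SMAD1, a transcription factor phosphorylated by the type I receptors, read 40, 29, 30 and 23 with a difference of -0.57. The activin receptor ACVR2A, at 88, 23, 115 and 90, had a difference of 1.07 and was under 2-fold in 5 of the alternatives. The type II receptor BMPR2 read 8, 12, 72 and 21, so it was above background in the Nestin/GFP (+) and (−) cells and in neither Oct4/GFP population. ACVR2B had a difference of -0.06. Of 4 measured genes among BMP receptors and Smads, 1 was past 2-fold, beside 8.22% of all measured genes higher and 13.3% lower. By bounds, which are minimum differences, SMAD5 was at least 1.12-fold higher and ENG at least 2-fold lower. A further 12 of 18 members had no fold.

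The ID genes differed among themselves. ID3 read 471, 71, 463 and 241 by its brighter probe, with Oct4/GFP (+) 2.97-fold higher, a difference of 1.57. Its other probe read 15, 8, 8 and 11, under the limit on all 4 arrays. ID1 read 4, 65, 1254 and 339. It was not above background in the Oct4/GFP (+) cells and was at least 11.6-fold lower there, and its probe is one of those apart on that array. ID2 read 48, 25, 38 and 52 by the probe above background on both Oct4/GFP arrays, with a difference of -0.10. In the Nestin/GFP pair the differences were 1.46 for ID1, 0.06 for ID2 and 0.48 for ID3, so ID1 was the member past 2-fold on opposite sides in the lines.

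CD44, a hyaluronan receptor used as a marker of tumor initiating cells, read 21, 83, 682 and 352. Its 1 probe gave a difference of -3.46 and is also apart on that array. The highest values of Oct4/GFP (+) over Oct4/GFP (−) rested on probes of the same kind. PANK3, a pantothenate kinase of coenzyme A synthesis, read 48433, 13, 87 and 95, at least 798-fold higher, and 48433 was the highest intensity on that array. UBE2Q1, a ubiquitin-conjugating enzyme, read 2918, 16, 28 and 61, 88.6-fold higher. SEL1L, an adaptor of the ER-associated ubiquitin ligase, read 1812, -9, -4 and -1, at least 68.3-fold higher. ANKDD1A read 10278, 2, 4 and 5, ZNF398 1034, -4, 4 and 9, and the Polycomb-related L3MBTL2 849, -2, 90 and 87. All of these 6 genes were far brighter in Oct4/GFP (+) than in the other 3 populations, and each has its difference from a single probe.

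Outside these probes, differences with Oct4/GFP (+) higher were smaller, also among the brighter genes. ZNF207, a zinc finger protein of the spindle checkpoint, read 216, 22, 256 and 207 and was 5.35-fold higher. GTF3A, the transcription factor of 5S ribosomal RNA genes, read 221, 24, 239 and 223, 5.03-fold higher. GSN, the actin-severing protein gelsolin, read 200, 24, 90 and 125, 4.53-fold higher, and for it the Oct4/GFP (+) value exceeded the other 3 arrays. STYXL1, ATP6V0B (a proton pump subunit), PSMD5, FOSB, MAGED1, VKORC1, MRPL17, COPS7B, MCTS1, ADSS1 and TMEM39B had differences between 1.71 and 1.93. MCTS1, a factor of translation reinitiation, had the brightest of these probes at 2740, 302, 1380 and 1520, and MAGED1, an adaptor of the MAGE family, read 923, 108, 991 and 895. After normalization ZNF207 lay at 314, 58.8, 150 and 162, so the Nestin/GFP levels were between those of the Oct4/GFP populations.

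In the other direction, the largest differences were ranked among genes above the median level whose probes all differed the same way. These contained more probes apart, in 9 of 15 genes. PWP1, a WD repeat protein of ribosome synthesis, read 20, 442, 1692 and 1567, 60.5-fold lower. ENSA, an inhibitor of the phosphatase PP2A in mitosis, read 20, 147, 909 and 526, 21.2-fold lower, and POLR2F, a subunit shared by RNA polymerases, read 21, 143, 1282 and 897, 19.7-fold lower. In all 3 the Oct4/GFP (+) value was near the limit while the other 3 arrays were bright. SNHG29 (C17orf45 on the array), the ADP/ATP carrier SLC25A6, C11orf48, PSMC4, PRPF6 and SNRPC were the other 6 with a probe apart.

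The 6 without one were PUSL1, GRPEL1, PSMA1, OGT, PLEKHB2 and DECR1. PUSL1, related to pseudouridine synthases, read 18, 370, 0 and 0, so it was bright on the Oct4/GFP (−) array alone, with Oct4/GFP (+) 59.7-fold lower. GRPEL1, a cofactor of mitochondrial HSP70, read 51, 159, 478 and 373, 7.80-fold lower. OGT, the enzyme that attaches N-acetylglucosamine to nuclear and cytosolic proteins, read 41, 114, 620 and 264, 6.75-fold lower. DECR1, of mitochondrial fatty acid oxidation, read 68, 161, 1372 and 556, 5.67-fold lower. For GRPEL1, OGT and DECR1 the Oct4/GFP (+) value was the lowest of the 4. PSMA1 is described with the proteasome below.

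Among genes not above background in the Oct4/GFP (+) cells, the largest bounds were those of NOP10, MKNK2, NACA2, H2AZ1, CNBP and ITPR3. NOP10, a protein of the H/ACA particles and of telomerase, read 11, 263, 1479 and 1390 and was at least 48.4-fold lower. MKNK2, a kinase of the initiation factor eIF4E, read 7, 218, 904 and 289, at least 40.8-fold lower. The histone variant H2AZ1 read 8, 161, 1946 and 1010 by its brighter probe, at least 30.5-fold lower. For each of the 6 the probe was among those standing apart. Towards the other side, the sixth largest bound was NIBAN1, a protein kept in stressed cells, at 148, 13, 152 and 91, at least 7.17-fold higher and with no probe apart.

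Which of both Oct4/GFP arrays stood away from the Nestin/GFP arrays was compared for genes with probes above background on all 4. Of 251 genes with Oct4/GFP (+) over 2-fold higher, the Oct4/GFP (−) level was the one farther from the Nestin/GFP mean in 143 (57.0%). Of 323 genes over 2-fold lower, the Oct4/GFP (+) level was farther in 194 (60.1%). Median distances for the higher genes were 0.56 above that mean for Oct4/GFP (+) and -0.78, hence below it, for Oct4/GFP (−). For the lower genes the values were -0.97 and 0.45. Low values on either array thus lay farther out than high ones.

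Genes of the unfolded protein response and of ER-associated degradation, which adjust protein folding in the endoplasmic reticulum and clear misfolded proteins from it, leaned towards lower levels in the Oct4/GFP (+) cells. Of 14 measured members, 6 were over 2-fold lower and 1 higher, which is 42.9% and 7.14% beside 13.3% and 8.22% of all measured genes. The median of the list was -0.54 against 0 for all. It lay between -0.35 and -0.78 under other normalizations and limits, at -0.24 over its 9 brighter members, and at -0.0037 with no limit and an offset of 50 over 38 members. With bounds included, SEL1L and CALR (47, 6, 13 and 10) were also higher and DERL2 (6, 23, 115 and 83) lower. In the Nestin/GFP pair 2 of 17 members were over 2-fold higher and 1 lower, with a median of -0.03.

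In one branch of this response the kinase PERK acts through the transcription factor ATF4, which the kinase GCN2 also uses outside this response. Known targets of ATF4 lay on both sides. ASNS, asparagine synthetase, read 331, 420, 1467 and 199 and lay 2.78-fold lower in Oct4/GFP (+). DDIT3, the factor CHOP, read 83, 111, 462 and 173, 2.94-fold lower. HERPUD1, a membrane protein of ER-associated degradation, read 33, 50, 539 and 132, 3.38-fold lower. All 3 were placed the other way in the Nestin/GFP pair, where their differences were 2.50, 0.98 and 1.57. TRIB3, a pseudokinase that restrains this response, read 65, 97, 125 and 117, 3.53-fold lower, with a Nestin difference of -0.21. SESN2, a leucine sensor that ATF4 and p53 both induce and that stood in the p53 list, read 47, 103, 116 and 37, 5.33-fold lower, with a Nestin difference of 1.40.

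Other members were chosen for mention after their values were seen. The lectin chaperone CANX read 139, 168, 1286 and 949 and EDEM2, which directs misfolded glycoproteins to degradation, 21, 23, 55 and 32, with differences of -1.41 and -1.39. PPP1R15A, the phosphatase subunit that ends the response, read 55, 15, 44 and 62, a difference of 1.07 the other way, and ATF3, a target of the same branch held in the immediate early list, at 82, 11, 154 and 85 was at least 3.89-fold higher. ATF4 itself, at 91, 44, 168 and 267, and XBP1, the factor of the IRE1 branch, at 189, 91, 370 and 432, had differences of 0.13 and -0.07. The genes of both factors were thus within 2-fold, whereas in the Nestin/GFP pair ATF4 had a difference of -1.04, opposite in sign to ASNS, DDIT3, HERPUD1 and SESN2.

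ASNS, HERPUD1 and CANX are shown with the 250 bases before their start, because the regulatory letters known for this response can be read there. Sequences are from the RefSeq promoter table of build GRCh38.p14, on the strand of the gene and 5′ to 3′. Capitals mark TGATGNAA, the core of the C/EBP-ATF response element bound by ATF4, in the first 2, and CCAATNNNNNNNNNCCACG, the ER stress response element, in the third. Both strands were searched.
ASNS, chr7:97872409-97872658, minus strand: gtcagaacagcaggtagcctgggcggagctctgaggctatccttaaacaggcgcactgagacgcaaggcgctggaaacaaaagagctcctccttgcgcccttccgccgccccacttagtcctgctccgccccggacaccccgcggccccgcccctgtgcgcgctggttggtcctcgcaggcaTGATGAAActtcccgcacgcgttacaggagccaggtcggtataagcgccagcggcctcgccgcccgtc
HERPUD1, chr16:56931892-56932141, plus strand: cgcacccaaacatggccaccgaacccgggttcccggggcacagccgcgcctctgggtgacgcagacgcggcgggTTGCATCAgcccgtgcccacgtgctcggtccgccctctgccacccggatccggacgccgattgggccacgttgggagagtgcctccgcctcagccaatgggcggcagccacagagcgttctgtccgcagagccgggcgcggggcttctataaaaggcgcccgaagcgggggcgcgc
CANX, chr5:179698679-179698928, plus strand: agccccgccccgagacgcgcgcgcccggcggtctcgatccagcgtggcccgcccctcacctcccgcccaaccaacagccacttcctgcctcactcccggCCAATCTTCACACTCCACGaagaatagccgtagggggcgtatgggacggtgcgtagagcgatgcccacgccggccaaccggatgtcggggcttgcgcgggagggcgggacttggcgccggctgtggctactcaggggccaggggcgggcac

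The match starts 68 bases before the start of ASNS, 176 before that of HERPUD1, where it lies on the other strand, and 151 before that of CANX. Of 27305 promoters of this length 3.19% held TGATGNAA and 0.0806% held the longer element. Among the measured genes with a promoter in the table the shares for TGATGNAA were 1.13% (4 of 354) of those over 2-fold lower, 0.457% (1 of 219) of those higher and 1.33% of all 2632. DDIT3, TRIB3, SESN2 and EDEM2 held neither run of letters in this window, which says nothing of sites elsewhere. ATGCAAAT, the octamer bound by POU proteins such as Oct4, was in 1.66% of all promoters, in 27 of 2632 measured genes (1.03%), in 3 of 219 higher genes (1.37%) and in 3 of 354 lower genes (0.847%).

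**Figure D3:**
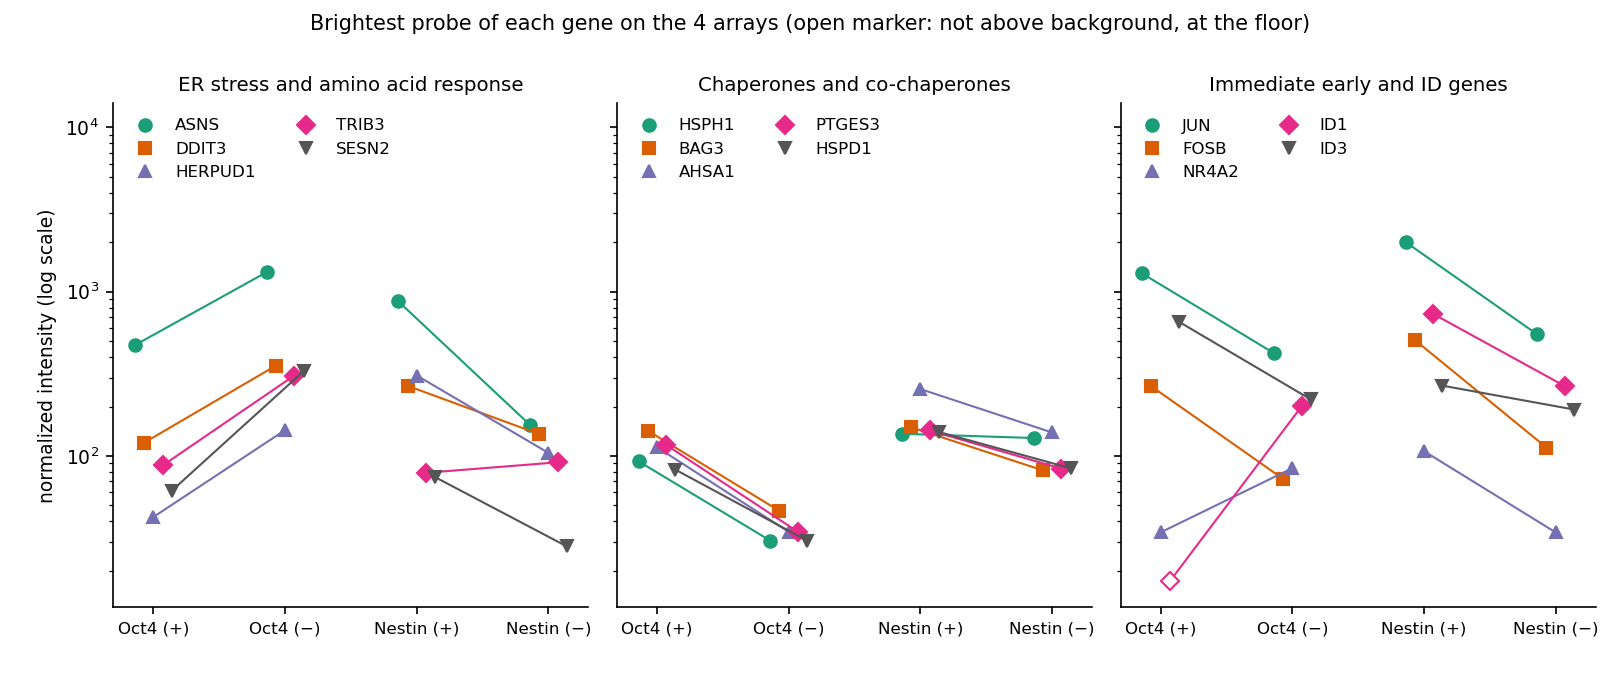
Normalized intensity (log axis) of the brightest probe of 15 genes on the 4 arrays, 1 point per array, with lines joining GFP (+) and GFP (−) of one line. ASNS, DDIT3, HERPUD1 and SESN2 slope one way in the Oct4/GFP pair and the other way in the Nestin/GFP pair, while JUN and FOSB slope the same way in both.

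Chaperones of the cytosol and mitochondria were less uniform. Of 22 measured members, Oct4/GFP (+) was over 2-fold higher for 5 (22.7%) and over 2-fold lower for 2 (9.09%), beside 8.22% and 13.3% of all measured genes, and the median was 0.08. The same 2 shares are the background for every list of measured genes that follows. PTGES3, the HSP90 co-chaperone p23, read 81, 15, 244 and 107, 3.38-fold higher. AHSA1, the activator of the HSP90 ATPase, read 79, 15, 442 and 177, 3.28-fold higher. BAG3, a nucleotide exchange factor of HSP70, read 95, 18, 255 and 105, 3.08-fold higher, and HSPH1, a large HSP70 relative, read 68, 14, 233 and 163, 3.04-fold higher. HSPD1, the mitochondrial HSP60, was the fifth at 62, 14, 239 and 108. In all 5 the Oct4/GFP (−) value was between 14 and 18, just above its limit of 13.9. With a limit of 5 noise SD the bounds, relative to the median of all genes, of PTGES3, AHSA1 and HSPH1 were 0.88, 0.83 and 0.55. As minimum differences these bounds neither reach nor exclude 2-fold. HSPA2 and STIP1 were the 2 lower members, at 30, 29, 94 and 92 and, for the brighter probe of STIP1, 145, 140, 961 and 838. None of 28 members measured in the Nestin/GFP pair was past 2-fold, although the differences of PTGES3, AHSA1 and BAG3 were positive there too, at 0.77, 0.88 and 0.87.

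Among 13 measured immediate early genes, which are transcribed within minutes of a stimulus, 2 were over 2-fold higher and 1 lower, with a median of -0.22. JUN, a subunit of AP-1, read 969, 132, 3247 and 685, 3.06-fold higher. FOSB, its partner of the FOS family, read 181, 27, 895 and 142, 3.66-fold higher. Both were also higher in the GFP (+) cells of the Nestin/GFP pair, by 3.65-fold and 4.52-fold. NR4A2, an orphan nuclear receptor, read 28, 31, 179 and 45, 2.46-fold lower in the Oct4/GFP (+) cells and 3.12-fold higher in the Nestin/GFP (+) cells. The sign of the median turned with the processing, to 0.03 after loess, 0.28 with a limit of 10 noise SD and 0.43 over the 8 brighter members.

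JUN and FOSB were 2 of the 26 genes past 2-fold the same way in both reporter lines, which share no array. Over 2828 genes measured in both, 13 were higher in both, 13 lower in both and 47 were past 2-fold in opposite directions, of which Oct4/GFP (+) was higher for 18 and lower for 29. The 26 are 4.51% of the 577 genes past 2-fold in the Oct4/GFP pair and 9.32% of the 279 past 2-fold in the Nestin/GFP pair, and the 47 are 8.15% and 16.8%. Of all genes measured in the Nestin/GFP pair, 6.03% were over 2-fold higher and 5.00% lower. Across the genes the differences of the 2 lines had r = -0.09 (Spearman rho = -0.08), given as a description.

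Among the other higher genes, RRAGA, a small GTPase that recruits mTORC1 to the lysosome, read 81, 18, 340 and 85, with differences of 1.34 in the Oct4/GFP and 1.60 in the Nestin/GFP line. RHOC read 67, 15, 183 and 56 (1.40 and 1.36), CDC42, by its brighter probe, 123, 23, 273 and 88 (1.56 and 1.25), and GNB2, a G protein beta subunit, 482, 89, 878 and 288 (1.24 and 1.15). ORAI1, the pore of the store-operated calcium channel, read 67, 15, 124 and 38 (1.40 and 1.43). Along with these were ENOPH1 of methionine salvage, CFAP20, ADSS1, CLCN2 and PAQR5, at Oct4 differences between 1.08 and 1.75. GNB2 was the brightest after JUN, and most of the others had an Oct4/GFP (−) value under 30.

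Among the genes lower in both were ZNF195 at 86, 137, 298 and 556 (-1.81 and -1.36), the helicase HELZ at 58, 80, 71 and 142 (-1.73 and -1.27) and RPS27L, a p53-inducible relative of a ribosomal protein, at 102, 117, 288 and 579 (-1.29 and -1.47). PLAAT3, a phospholipase, and UCK2, a kinase of pyrimidine salvage, read 34, 39, 23 and 78 and 30, 29, 156 and 384. ARMC6, BBS2, CDK7, TACC1, UTP14C and WDR74 had Oct4 differences from -2.78 to -1.05. GNL3L, also counted here at -1.70, rests on 1 dim probe at 18, 24, 36 and 20, and another of its probes read 61, 12, 84 and 154, the opposite order. In this group the GFP (+) cells were lower in each line, and the deposited values of the Oct4/GFP pair often differed by less than the scaling.

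**Figure D4:**
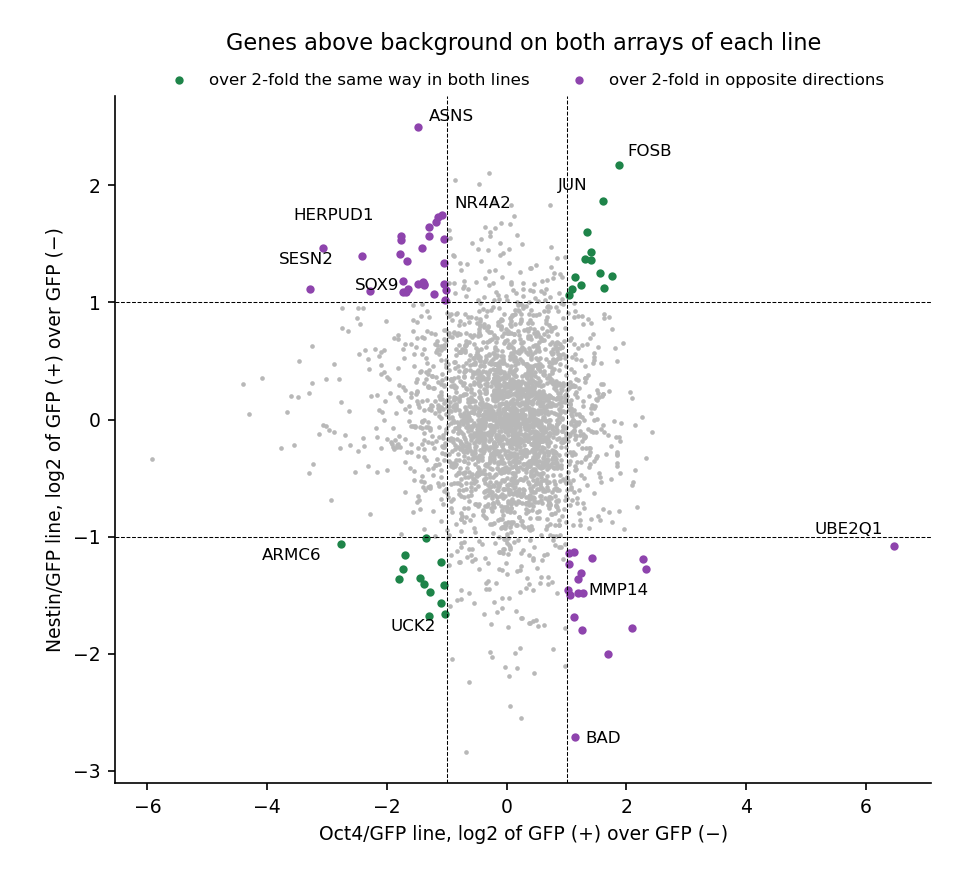
Log2 difference of GFP (+) over GFP (−) in the Oct4/GFP line (horizontal) and in the Nestin/GFP line (vertical) for 2828 genes, with dashed lines at 2-fold on either side. Green marks the 26 genes past 2-fold the same way in both lines, FOSB and JUN among them, and purple the 47 past 2-fold in opposite directions, ASNS among them.

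Genes of the cell cycle were near level as groups. In mitosis 2 of 24 measured genes were higher and 2 lower (8.33% each), with a median of 0.23. Next to BIRC5, ECT2, which activates RHOA at cytokinesis, was higher at 59, 14, 114 and 53 (2.55-fold). KIF20A, a kinesin of cytokinesis, read 72, 140, 1111 and 874, 4.50-fold lower, and FOXM1, a transcription factor of the G2 genes, 23, 26, 38 and 51, 2.67-fold lower. In DNA replication and nucleotide synthesis 2 of 19 were higher and 1 lower. MCM7, of the replicative helicase, read 840, 145, 2095 and 858, 2.41-fold higher, and POLA2, of primase-polymerase alpha, 182, 40, 351 and 293, 2.39-fold higher. CDT1, which loads that helicase, read 48, 95, 372 and 128, 4.85-fold lower, and was 2.14-fold higher in the Nestin/GFP (+) cells. Of 9 measured histones H2AX was higher and H1-10, a linker histone, lower at 18, 20, 186 and 98.

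**Figure D5:**
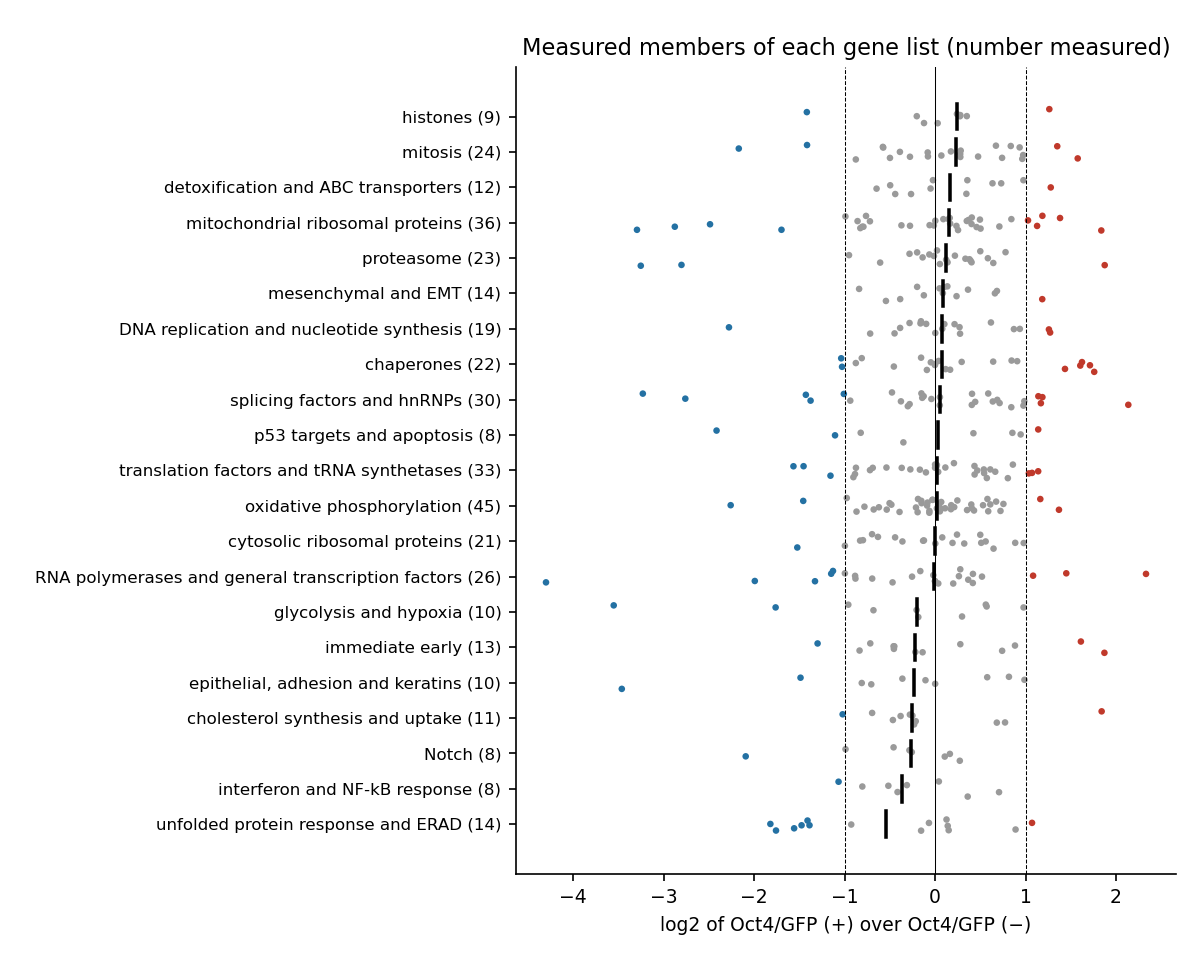
Log2 difference between the Oct4/GFP arrays for each measured member of the gene lists with at least 8 measured members, with the number measured in parentheses and the median as a black bar. Red points are over 2-fold higher and blue points over 2-fold lower. Most medians lie near 0, and the list with the lowest is the unfolded protein response and ER-associated degradation at -0.54.

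In the mitochondrion, the oxidative phosphorylation genes had 2 of 45 measured members higher and 2 lower, a median of 0.02 and 41 members within 2-fold. Bounds added 1 higher and 6 lower, UQCR11 of complex III at least 20.1-fold lower by a probe apart among them. That gives 3 higher and 8 lower of 52 compared, beside 11.1% and 19.6% of all genes compared with bounds. SDHB, the iron-sulfur subunit of complex II, was among the brightest probes at 5448, 830, 5146 and 5094, 2.58-fold higher. NDUFV1 of complex I read 136, 33, 416 and 260, 2.24-fold higher. COX8A of complex IV read 754, 1781, 11315 and 7609, 4.79-fold lower, and NDUFA6 of complex I, by its brighter probe, 63, 74, 998 and 907, 2.75-fold lower. Mitochondrial ribosomal proteins had 5 higher and 4 lower of 36 (13.9% and 11.1%), and 7 and 10 of 49 with bounds, with MRPL17 at 243, 36, 397 and 359 (3.57-fold higher), MRPL35 at 21, 46, 95 and 97 (5.61-fold lower) and, with probes apart, MRPL12 and MRPL51 at differences of -3.29 and -2.88. The shares of 11.1% and 19.6% also stand beside the 7 and 10 of 49. Subunits of one complex lay on both sides, and whether these counts depart from the shares of all genes was not tested.

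Of 21 measured cytosolic ribosomal proteins 0 were higher and 1 lower, RPL29 at 83, 109, 472 and 278, with a median of 0. By bounds, RPL28 and RPL34 were at least 2.88-fold and 2.68-fold lower. The proteasome had 1 higher and 2 lower of 23. PSMD5, a chaperone of its assembly, read 189, 28, 302 and 245, 3.67-fold higher. PSMA1, of the core particle, read 179, 559, 3057 and 1735 by its brighter probe, 6.98-fold lower. Its dimmer probe was above background on only the Oct4/GFP (+) array of the pair, at 21 against 6. PSMC4, a regulatory ATPase, read 51, 197, 1413 and 842, 9.53-fold lower by a probe apart.

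In RNA synthesis and processing, 3 of 26 RNA polymerase and general transcription factor genes were higher and 5 lower, and 4 of 30 splicing factors were higher and 5 lower. POLR2K, a small subunit shared by the polymerases, was higher at 69, 15, 200 and 139 (2.73-fold), and POLR2D, another RNA polymerase II subunit, lower at 21, 34, 399 and 330 (3.98-fold). TRA2B, a splicing regulator of the SR family, read 90, 14, 423 and 323, 4.39-fold higher. PRPF6, which joins the tri-snRNP, read 29, 106, 589 and 550, 9.38-fold lower, and SNRPC of the U1 snRNP 56, 152, 1771 and 1179, 6.78-fold lower, both by probes apart. Of 33 translation factors and tRNA synthetases 3 were higher and 3 lower, with EIF3G at 255, 351, 2507 and 1905 by its brighter probe (2.96-fold lower) and EIF3L at 91, 95, 830 and 390 (2.23-fold lower), both subunits of the factor that recruits the small ribosomal subunit. EIF4A2, an RNA helicase of the cap complex, was higher at 58, 15, 165 and 81 (2.20-fold).

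Signaling and lineage genes gave fewer measured members. In the Wnt list 2 of 4 measured members were lower, GSK3B, the kinase of the beta-catenin destruction complex, at 62, 56, 226 and 149 with a difference just past -1, and the secreted antagonist DKK3 at 27, 27, 116 and 101 with -1.14. GSK3B was under 2-fold in 6 of the alternatives. Of 8 measured Notch genes, the ligand DLL3 was lower at 18, 31, 37 and 43 (4.27-fold). LTBP2, which is related to the proteins that store latent TGF-beta, read 36, 66, 301 and 170 by its brighter probe, 4.30-fold lower. SOX9, a factor of airway progenitors, read 44, 55, 139 and 51, 2.80-fold lower, and was 2.23-fold higher in the Nestin/GFP (+) cells. KLF17 was lower at 19, 19, 32 and 9 (2.37-fold). TERT, the catalytic subunit of telomerase, was the lower one of 2 measured pluripotency genes at 60, 83, 177 and 96 (3.28-fold). By bounds, 2 Notch genes, 2 Wnt genes and 1 pluripotency gene were over 2-fold higher, and 3 Wnt genes and 4 SOX, POU and KLF genes lower. The SOX, POU and KLF list thus had 0 higher and 6 lower of 14 compared, beside 11.1% and 19.6% of all genes compared. With 2 to 8 measured members in each of these lists, and 8.22% of all measured genes higher and 13.3% lower, these counts say little of the lists. The neural progenitor genes VIM and ZIC2, the latter at 85, 58, 414 and 211, and the neuronal genes ENO2 and TUBB3 were within 2-fold, at differences from -0.68 to -0.20.

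Adhesion and mesenchymal genes were mostly within 2-fold as well. Integrin alpha 6 (ITGA6) read 36, 46, 78 and 103, 2.80-fold lower, next to CD44, and no other of the 10 measured genes of adhesion, epithelium and keratins was past 2-fold. MMP14, a membrane-bound collagenase, was the 1 of 14 mesenchymal genes past it, at 153, 36, 85 and 181, 2.27-fold higher in Oct4/GFP (+) and 2.57-fold lower in the Nestin/GFP (+) cells. The cancer-testis antigens MAGEA1 and MAGEA10 had differences of 0.33 and 0.61.

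In metabolism and stress, hexokinase HK1 was 11.7-fold lower at 16, 66, 594 and 506, by a probe apart, and HIF1A, the hypoxia-induced factor, 3.39-fold lower at 18, 25, 112 and 85. The other 8 of 10 measured genes of glycolysis and hypoxia were within 2-fold. CYP51A1 of cholesterol synthesis was 3.58-fold higher by its brighter probe at 77, 14, 96 and 105. INSIG1, which holds back the sterol-sensing factor SREBP, had a difference of -1.02 at 27, 25, 112 and 44, and 9 of 11 cholesterol genes were within 2-fold. GPX4, which reduces lipid peroxides, was the 1 of 12 detoxification genes and ABC transporters past 2-fold, higher at 995, 170, 1894 and 2228 (2.43-fold). BAD, a pro-apoptotic BCL2 relative, read 559, 107, 1050 and 4927 and was 2.20-fold higher in the Oct4/GFP (+) but 6.56-fold lower in the Nestin/GFP (+) cells. TP53I3, a p53 target, and IFITM3, an interferon-induced membrane protein, were lower at 18, 17, 18 and 28 and at 17, 16, 108 and 129, both close to the limit on the Oct4/GFP arrays.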

How the data were processed

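The members and gene lists were chosen with earlier results of these data known. RNA of 4 H1299 populations was hybridized to 1 Phalanx Human OneArray 4.2 each. What the authors deposited holds, for 30968 probes, an intensity on a linear scale in whole numbers that go below 0, so a background had been subtracted. Not given in the sources used here were their software, scaling, filters and genome build. Of 15240 platform symbols, 15169 matched RefSeq. The noise SD is the root mean square of an array's values below 0, and the limit was 3 noise SD. Values were quantile normalized over the 4 arrays. For each gene, log2 differences were averaged over the probes that passed the limit on both arrays. Otherwise a bound was taken towards the floor, the lowest normalized value that passed. The number of arrays sets the precision. Alternatives covered scaling, limit, offset, probes and threshold. Named genes were those the paper names, the 15 largest differences each way among brighter genes, genes past 2-fold by 2 probes, up to 12 each way in both lines, up to 4 per list and the 6 largest bounds each way. HSPD1, CANX, EDEM2, PPP1R15A, CALR, DERL2, ATF3, UQCR11, RPL28, RPL34 and the markers not covered by these rules were named after their values were seen. The steps were tested on simulated data. Python 3.11.15, numpy 2.4.6, pandas 2.3.3 and statsmodels 0.14.6 were used.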

Additional observations from a re-analysis of the deposited data

Results flagged for a closer look

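A group of 10 named genes was past 2-fold in opposite directions in the reporter lines, and the difference between the lines was not tested, since each line has 1 array per population. Of these, 7 were lower in the Oct4/GFP (+) and higher in the Nestin/GFP (+) cells. The log2 difference in the Oct4/GFP and the Nestin/GFP line was -1.48 and 2.50 for ASNS, -1.76 and 1.57 for HERPUD1, -2.42 and 1.40 for SESN2 and -1.30 and 1.64 for NR4A2. It was -2.28 and 1.10 for CDT1, -1.02 and 1.10 for INSIG1 and -1.49 and 1.16 for SOX9. The 3 genes placed the other way were BAD at 1.14 and -2.71, MMP14 at 1.18 and -1.36 and UBE2Q1 at 6.47 and -1.08. UBE2Q1 rests on a probe that is apart on the Oct4/GFP (+) array.

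Probes without a gene symbol here were not used in any comparison of the report. Of 1342 such probes above background on both Oct4/GFP arrays, 305 were past 2-fold, 98 higher and 207 lower, which is 22.7% beside 21.8% of the named probes.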

How the results depend on the processing

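The count of 1525 genes past 2-fold (552 higher, 973 lower) and of 26 past it the same way in both lines moved with most choices. The same counts were 2777 (1193 and 1584) and 178 with a threshold of 1.5-fold, 300 (42 and 258) and 0 with 4-fold, and 2603 (2460 and 143) and 189 on the values as deposited. They were 2455 (1012 higher) and 54 with a limit of 2 noise SD, 725 (177 and 548) and 12 with 5, 266 (59 and 207) and 6 with 10, and 549 (212 and 337) and 5 with no limit and an offset of 50. Loess gave 850 higher and 646 lower. Over the genes above the median level the counts were 237 (118 and 119) and 11, and without bounds 682 (261 and 421). Quantile normalization of the Oct4/GFP arrays alone (1093), scaling to the median (1270), the brightest probe of each gene (1543), probes above background on at least 1 array (1521) and leaving out the probes apart (1441) kept the total within 1.5 times. The cause of these moves was not tested, other than the fewer or more genes that each limit, bound or threshold admits.

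GNL3L turned from -1.70 to 0.039 with a limit of 2 noise SD and to 0.21 with the offset, and SNRPA from -1.43 to 0.12 without its probe apart. Of 126 named genes past 2-fold, 62 stayed past it under every alternative that gave a value, and the offset took 53 under it. The correlation between the lines lay between -0.05 and -0.09 throughout. Signal over background limits the comparison, since 20972 of 30968 probes were above it on neither Oct4/GFP array. No paired analysis was possible because each population has 1 array and the groups share only 1 replicate number.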
